A study of Mus musculus with 4 samples.

Results

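The collagen gene family was followed in whole lungs of mouse embryos, in 2 wild-type samples and 2 samples carrying a transgene that misexpresses Nmyc in lung epithelium. Members were the probe sets that the platform annotation gives to a single gene whose symbol has the form Col, number, a, number. They came to 58 of the 22690 probe sets on the array and 36 of the 12393 genes read by a probe set with 1 symbol. By the type of structure they build, 6 of the genes code for fibrillar collagens, 9 for basement membrane collagens, 7 for collagens of cartilage and 14 for other types.

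Both groups were titled embryonic day 18, close to birth, while the design text gives day 18.5 for the transgenic embryos and no finer age for the wild type. In the Sftpc-Nmyc group, 3.7 kb of the human SFTPC promoter and enhancer drove mouse Nmyc1 (Mycn) fused to EGFP. The transgenic embryos were made by pronuclear injection into eggs with C57BL/6J and DBA/2J ancestry. The labels do not say which of the injected embryos were arrayed, whether lungs were pooled or the strain of the wild type. Replicates were described as biological, and their number, 2 per group, limits the precision of everything below.

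Collagens are secreted proteins of 3 chains wound into a triple helix. Each chain has glycine at regular steps, is hydroxylated on proline and lysine in the endoplasmic reticulum, and after secretion is trimmed, assembled and crosslinked. Fibrillar collagens give the lung its tensile strength and come mainly from mesenchymal cells. Type IV collagen forms the sheet-like network of basement membranes, which lie under epithelium and around vessels and fuse where alveolus meets capillary.

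Signals are the deposited linear intensities, and all differences are Sftpc-Nmyc minus wild type on the log2(value + 5) scale, with the limma standard error after the ± sign and n = 2 per group. That offset understates changes of dim genes. For each gene the probe set with the highest mean stands for the gene, genes whose mean fell in the lowest 30% were not tested, and a gene is called when its limma Benjamini-Hochberg adjusted p over all 8675 genes tested is under 0.05. The arrays had medians of 65.45 to 70.8, with a Pearson correlation over probe sets of 0.964 for the wild-type pair, 0.969 for the Sftpc-Nmyc pair and 0.922 to 0.933 across groups. The brightest Mycn probe set rose from 34.7 and 32.1 to 455.2 and 356 (3.46 ± 0.19, limma adjusted p = 7.3e-05), although another fell from 78.7 and 63.5 to 25.1 and 27.2. The lung markers Sftpc and Sftpb were bright on all 4 arrays, but both were called lower in Sftpc-Nmyc. Sftpc was at 9566 and 9546 in wild type and 5788 and 4817 in Sftpc-Nmyc, and Sftpb at 4516 and 4792 against 886.5 and 590.9. Xist, made from the inactive X chromosome, was at 1708 and 1506 in wild type and 59.3 and 63.9 in Sftpc-Nmyc, and the Y-linked Eif2s3y at 3.1 and 0.8 against 58 and 61.7, so sex and genotype cannot be told apart here.

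Collagens were lower in the Sftpc-Nmyc lungs across most structural types. Of the 24 tested, 17 were called lower and 0 higher with limma, and 0 were higher at an unadjusted p under 0.05. The background over all genes tested was 15.7% lower and 14.7% higher, 30.4% in either direction. Both wild-type signals lay above both Sftpc-Nmyc signals in 21 of the 24, against 34.8% of all genes tested, and the reverse held for 1, Col4a6, against 33.2%. The median difference was -0.83 over the tested collagens and -0.02 over all genes tested, and 9 collagens were called with a fall of at least 2-fold, which 6.02% of all genes tested were. The remaining 12 members were too dim to test. With no filter on dim genes, 0 of those 12 were called. In RNA from whole lung, fewer cells that make a collagen and less RNA per cell cannot be told apart.

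The count of 17 fell to 12 without wild-type replicate 2, when Col5a1, Col7a1, Col14a1, Col18a1 and Col25a1 were no longer called. Across 13 alternative settings and left-out arrays, 12 collagens were called lower in every setting that tested them. These were Col1a2, Col3a1, Col5a2, Col4a1, Col4a2, Col4a3, Col4a4, Col15a1, Col6a1, Col6a2, Col6a3 and Col13a1.

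**Figure D1:**
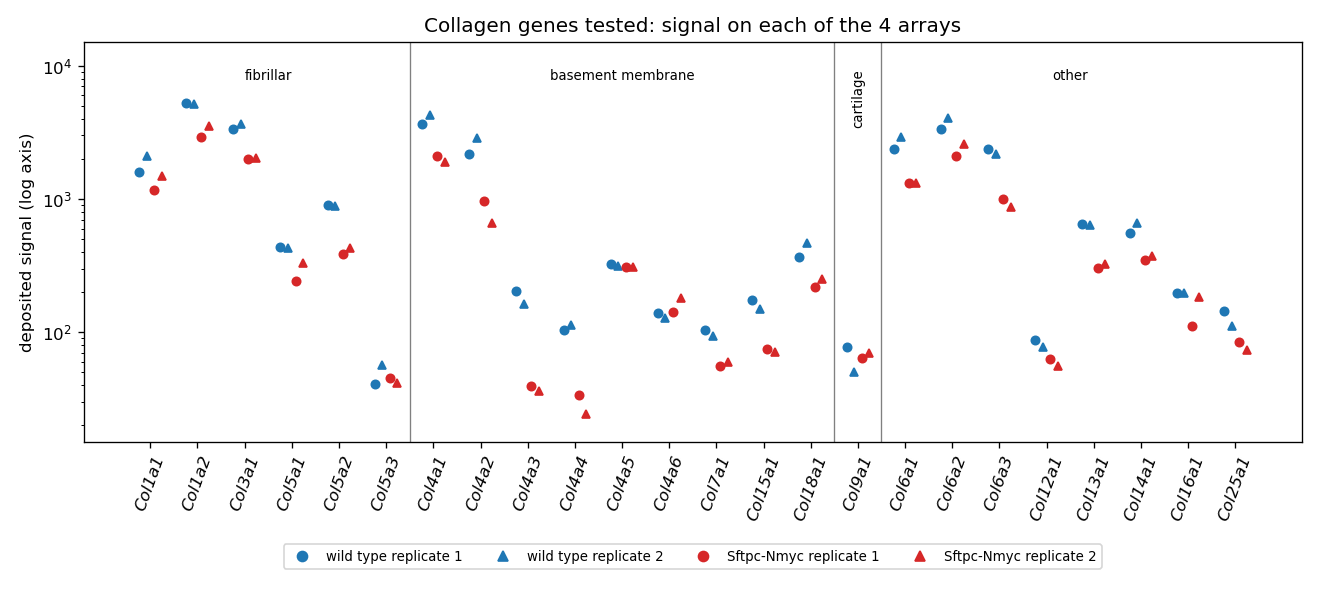
Deposited signal (log axis) of the 24 tested collagen genes on each of the 4 arrays, grouped by structural type, with 1 brightest probe set per gene. For most genes both Sftpc-Nmyc arrays (red) sit below both wild-type arrays (blue), while Col4a5, Col4a6, Col5a3 and Col9a1 show little separation or none.

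**Figure D2:**
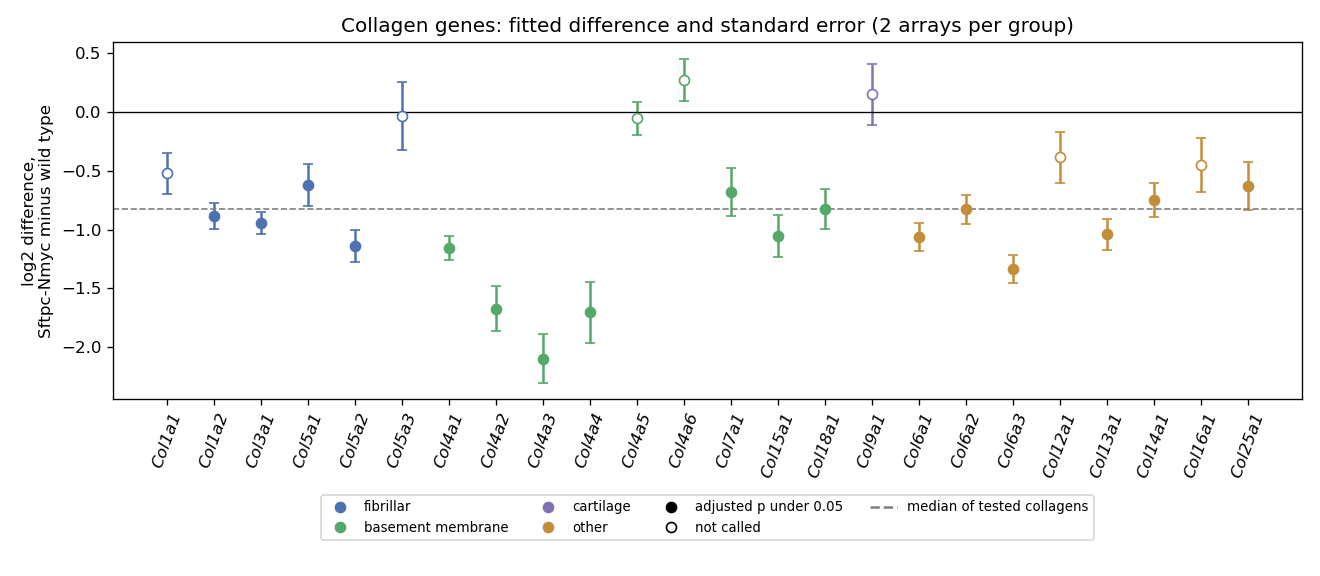
Fitted log2 difference for each tested collagen, Sftpc-Nmyc minus wild type, with bars of 1 standard error (2 arrays per group). Filled points passed an adjusted p under 0.05, the dashed line is the median of the tested collagens at -0.83, and Col4a3 lies lowest at -2.10.

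Fibrillar collagens were lower in 4 of 6 genes, with a median of -0.76. Col3a1, the chain of type III collagen that is abundant in lung and vessel walls, had signals of 3334 and 3628 in wild type and 2011 and 2033 in Sftpc-Nmyc. The groups lie far apart against the small gap between replicates, and the gene fell by 0.94 ± 0.10 (limma adjusted p = 0.000691). Col1a2, the second chain of type I collagen, was at 5299 and 5135 against 2938 and 3526. Both transgenic arrays were lower, and Col1a2 fell by 0.89 ± 0.11 (limma adjusted p = 0.00127).

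Col1a1, the main chain of type I collagen, was not called. Its brightest probe set gave 1607 and 2108 in wild type and 1158 and 1475 in Sftpc-Nmyc. The groups did not overlap, but the wild-type replicates were well apart, and the difference of -0.52 ± 0.18 did not pass (limma adjusted p = 0.0564). It was -0.33 without either wild-type replicate 2 or Sftpc-Nmyc replicate 1. Its other probe set, at 847.6 and 709.4 against 581.7 and 514.4, gave nearly the same difference, -0.53 ± 0.15, and did pass among probe sets (limma adjusted p = 0.0341 over 14266). Col1a1 was called in 4 of 13 alternatives, among them the mean of its probe sets (limma adjusted p = 0.0127).

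Type V collagen nucleates fibrils of types I and III and limits their width. Col5a2 had signals of 897 and 884.1 in wild type and 382.9 and 429.9 in Sftpc-Nmyc, a difference of -1.14 ± 0.13 (limma adjusted p = 0.00104). Col5a1 was at 437.9 and 431.1 against 241.7 and 330.4. Its transgenic replicates lie wider apart than its wild-type ones, and the fall of 0.62 ± 0.18 (limma adjusted p = 0.0319) was not called without Sftpc-Nmyc replicate 1 (-0.40) or without either wild-type array. The Col5a1 call was also lost with no filter on dim genes (limma adjusted p = 0.0626) and with no variance trend (0.0652). The 2 other Col5a1 probe sets were both called, at -0.96 ± 0.19 and -0.75 ± 0.14. Col5a3, a minor type V chain, was dim and overlapped between groups, at 40.6 and 56.2 against 45.2 and 41.5 (-0.04 ± 0.29).

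Promoter sequences were available from RefSeq (GRCm38.p6) for 27 of the 36 collagens, as 300 bases around a start site. To let the starts of members that fell be compared, the stretches upstream of Col1a2 (chr6:4505368-4505617, plus strand), Col3a1 (chr1:45311288-45311537, plus strand) and Col6a1 (chr10:76726045-76726294, minus strand) are given 5′ to 3′ on the gene's strand. Capitals mark matches on either strand to TATAAA (the core of the TATA box), to CCAAT (the core of the CCAAT box), to GGGCGG (the core of the GC box) or to CACGTG (the E-box that MYC proteins bind).
Col1a2: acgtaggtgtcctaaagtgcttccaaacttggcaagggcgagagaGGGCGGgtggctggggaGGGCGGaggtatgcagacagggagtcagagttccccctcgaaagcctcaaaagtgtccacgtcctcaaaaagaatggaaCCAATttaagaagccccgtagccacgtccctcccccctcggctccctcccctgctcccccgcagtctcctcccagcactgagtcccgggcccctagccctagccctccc
Col3a1: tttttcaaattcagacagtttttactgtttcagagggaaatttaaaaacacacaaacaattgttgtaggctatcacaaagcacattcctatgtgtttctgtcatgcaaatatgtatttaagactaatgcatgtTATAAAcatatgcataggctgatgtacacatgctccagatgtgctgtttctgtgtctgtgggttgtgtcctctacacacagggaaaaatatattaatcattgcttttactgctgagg
Col6a1: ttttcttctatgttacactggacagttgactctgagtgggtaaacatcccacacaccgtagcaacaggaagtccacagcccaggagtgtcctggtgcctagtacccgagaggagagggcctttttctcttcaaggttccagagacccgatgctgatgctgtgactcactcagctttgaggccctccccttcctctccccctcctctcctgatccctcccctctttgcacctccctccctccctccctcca
The 3 stretches differ in makeup, with a GC content of 62% for Col1a2, 35.2% for Col3a1 and 56% for Col6a1. Col1a2 held 1 CCAAT and 2 GGGCGG matches, Col3a1 held 1 TATAAA match and Col6a1 held none of the motifs. Over the full windows, CACGTG was found in 0 of the 27 matched collagens and in 8.09% of all 27025 genes in the table. CCAAT was in 6 of 14 collagens called lower and 4 of 5 not called, against 41.1% of all genes, and GGGCGG in 8 of 14 and 4 of 5, against 38.2%. TATAAA was in 2 of 14 and 0 of 5, against 15.7%. These are counts of letters in a short window, and no binding was measured.

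Basement membrane collagens ranged from -2.10 for Col4a3 to 0.27 for Col4a6. Of 9 tested, 7 were called lower and 0 higher, with a median of -1.05. The 6 type IV genes are neighbours in 3 pairs, and their chains join into different networks. The network of Col4a1 and Col4a2 is found in basement membranes throughout the body, that of Col4a3, Col4a4 and Col4a5 in specialised ones such as those of the kidney glomerulus and the alveolus, and Col4a6 joins Col4a5 in others.

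The pair Col4a1 and Col4a2, neighbours on chromosome 8, was lower. Col4a1 had signals of 3639 and 4260 in wild type and 2104 and 1881 in Sftpc-Nmyc, which is 53.3% and 47.6% of the wild-type mean on the transgenic arrays. Replicates were close and the groups far apart (-1.16 ± 0.10, limma adjusted p = 0.00043), and the second Col4a1 probe set fell by 1.46 ± 0.16. Col4a2 was at 2185 and 2855 against 969.3 and 664.7. It fell by 1.67 ± 0.19 (limma adjusted p = 0.000967), and its log2 ratio to Col4a1 did not overlap between the groups.

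The pair Col4a3 and Col4a4, neighbours on chromosome 1, was lower. Col4a3 had signals of 204.5 and 163.2 in wild type and 39.6 and 35.9 in Sftpc-Nmyc, leaving 21.5% and 19.5% of the wild-type mean. It fell by 2.10 ± 0.21 (limma adjusted p = 0.000619), a 4.27-fold difference. Col4a4 was at 104.4 and 113.4 against 33.7 and 24.2, and fell by 1.70 ± 0.26 (limma adjusted p = 0.0028). The transgenic signals of both lie under 73.4, the highest signal of 27 Bacillus control probe sets, so they may be at background and the folds may be too small. Each was called in all 12 alternatives that tested it and was too dim for the 50th percentile filter. With an offset of 32 the values were -1.60 for Col4a3 and -1.18 for Col4a4, beside -1.64 for Col4a2, so the order of these falls depends on the offset.

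The pair Col4a5 and Col4a6, neighbours on chromosome X, was not called. Col4a5 had signals of 324.9 and 314 in wild type and 308.9 and 306.9 in Sftpc-Nmyc. All 4 arrays lie within a narrow band, and the difference was -0.05 ± 0.14 (limma adjusted p = 0.801). Its second probe set gave -0.26 ± 0.18. Col4a6 was at 138.9 and 126.9 against 141.9 and 180.5, a difference of 0.27 ± 0.18 (limma adjusted p = 0.295). Over left-out arrays the difference ranged from 0.10 without Sftpc-Nmyc replicate 2 to 0.43 without Sftpc-Nmyc replicate 1. With the mean of the probe sets of Col4a6 it was 0.54 and just missed the threshold (limma adjusted p = 0.0517). Its second, dimmer probe set stood further apart, at 31.9 and 29 against 58.4 and 49 (0.82 ± 0.28, limma adjusted p = 0.0686 over probe sets). It passed only when the variance trend was left out (limma adjusted p = 0.0306). Both genes are X-linked and the groups differ in Xist, and the part of sex in these values was not tested.

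**Figure D3:**
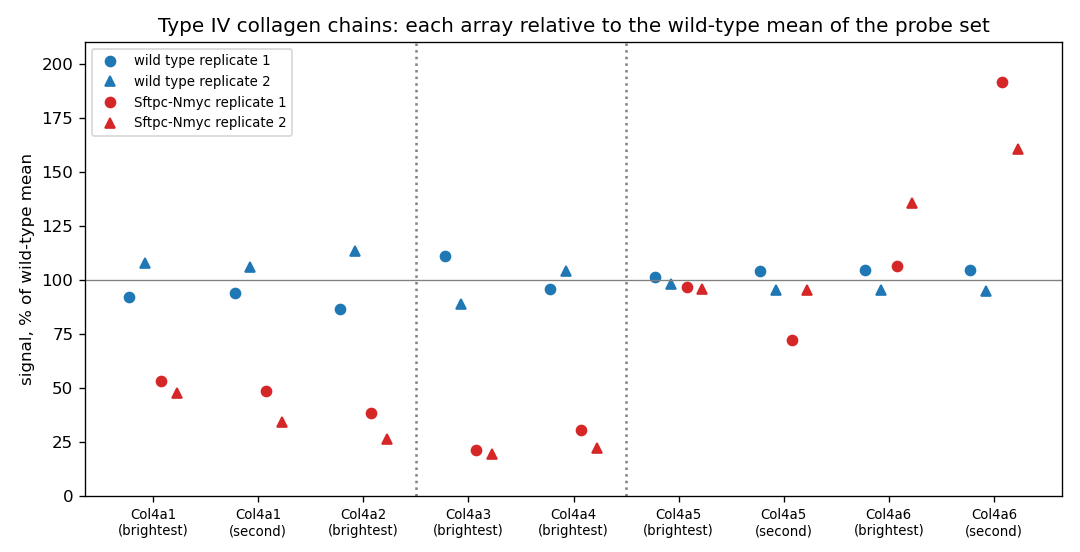
Signal of the type IV collagen probe sets on each array, as a percentage of the wild-type mean of that probe set, with the 3 neighbouring gene pairs set apart by dotted lines. Sftpc-Nmyc arrays stand at 19.5% to 53.3% for Col4a1 to Col4a4 and at 72.5% to 192% for Col4a5 and Col4a6.

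Ratios between chains were computed within each array. The log2 ratio of Col4a3 to Col4a5 changed by -2.04 (SD of the ratio 0.17 in wild type and 0.12 in Sftpc-Nmyc, n = 2), and that of Col4a4 to Col4a5 by -1.65 (SD 0.13 and 0.33, n = 2). Within the pairs, the ratio of Col4a1 to Col4a2 changed by 0.51 on the brighter Col4a1 probe set, the other probe set of Col4a1 lying closer to Col4a2, of Col4a3 to Col4a4 by -0.39 and of Col4a5 to Col4a6 by -0.32. Of 13 pairs compared across the family, with both chains tested, 11 had ratios that did not overlap between groups. Several pairs share a chain, and some join chains of different collagens. The share among other pairs of genes was not computed. Of all single genes tested, 34.8% did not overlap with wild type above and 33.2% with Sftpc-Nmyc above. With 2 arrays against 2 the two-sided exact permutation p cannot go below 0.333, the value of all 11 (0.394 adjusted over the 13 pairs), so the test cannot separate them from chance.

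The annotated windows of Col4a1 and Col4a2 share 78 bases on opposite strands, and in RefSeq the gene models of Col4a3 and Col4a4 overlap. Those of Col4a5 and Col4a6 do not. As the pair that was not called, their upstream stretches are given 5′ to 3′ on each gene's strand, Col4a5 at chrX:141475169-141475369, plus strand and Col4a6 at chrX:141474096-141474326, minus strand (GRCm38.p6, RefSeq), with capitals as above.
Col4a5: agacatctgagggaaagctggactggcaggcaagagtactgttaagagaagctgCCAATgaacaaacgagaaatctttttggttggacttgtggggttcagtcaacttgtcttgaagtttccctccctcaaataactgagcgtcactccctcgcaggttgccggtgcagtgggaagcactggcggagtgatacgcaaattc
Col4a6: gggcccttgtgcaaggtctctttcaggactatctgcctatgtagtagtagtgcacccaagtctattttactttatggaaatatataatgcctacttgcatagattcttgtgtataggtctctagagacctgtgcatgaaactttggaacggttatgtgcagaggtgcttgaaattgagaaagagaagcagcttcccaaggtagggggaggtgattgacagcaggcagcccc
The stretches of Col4a5, 201 bases, and Col4a6, 231 bases, were cut where an annotated gene begins, against 250 bases for those above. The Col4a5 stretch held 1 CCAAT match and that of Col4a6 held none of the 4 motifs. Over the full windows of 300 bases, however, both genes held GGGCGG and Col4a5 also held CCAAT. GC content of the printed stretches was 49.8% and 45.5%. Over the full windows it was 52.7% for Col4a5, 48.3% for Col4a6, 74% for Col4a1, 73.7% for Col4a2 and 63.3% for Col4a4. The median window of collagens called lower had 60.8% GC, against 52.7% for those not called, 57.6% for those not tested and 52.7% for all windows.

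The other collagens of the basement membrane zone were lower. Col15a1, which links basement membranes to the matrix around vessels and muscle, was at 172.9 and 149.5 in wild type and 74.9 and 71.4 in Sftpc-Nmyc (-1.05 ± 0.18, limma adjusted p = 0.00421). Both transgenic signals were far below both wild-type ones. Col18a1, whose end fragment is endostatin, was at 366.8 and 470.9 against 218.7 and 248.5 (-0.82 ± 0.17, limma adjusted p = 0.00936), and its second probe set fell by 1.12 ± 0.15. The Col18a1 call was lost without wild-type replicate 2 (limma adjusted p = 0.0734). Col7a1, the anchoring fibril collagen, was at 104.1 and 93.9 against 55.4 and 59.5 (-0.68 ± 0.20, limma adjusted p = 0.0365). It was not called without any 1 of the 4 arrays (-0.74 to -0.62). The Col7a1 call was also lost with no filter on dim genes (limma adjusted p = 0.0829) and with the replicate number as a block (0.062).

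Among the other types, 6 of 8 tested genes were lower, with a median of -0.79. All 3 measured chains of type VI collagen, which forms beaded filaments next to basement membranes, were called. Col6a3 had signals of 2382 and 2168 in wild type and 1003 and 873.6 in Sftpc-Nmyc and fell by 1.34 ± 0.12 (limma adjusted p = 0.000428). Col6a1 was at 2386 and 2934 against 1311 and 1308 (-1.06 ± 0.12, limma adjusted p = 0.000943). Col6a2 was at 3375 and 4027 against 2094 and 2604 (-0.83 ± 0.13, limma adjusted p = 0.00267). For each chain both transgenic arrays were below both wild-type ones. The other Col6a2 probe set gave -1.04 ± 0.13.

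The transmembrane collagen Col13a1, found at cell-matrix contacts, was at 643.9 and 638.7 in wild type and 302.3 and 322.2 in Sftpc-Nmyc. Replicates nearly coincided and the gene fell by 1.04 ± 0.13 (limma adjusted p = 0.00148). Col25a1, another transmembrane type, was at 144.1 and 112 against 84.5 and 73.2 and only just passed (-0.63 ± 0.20, limma adjusted p = 0.0488). It was lost whichever array was left out (-0.80 to -0.46). The Col25a1 call was also lost with median centring (limma adjusted p = 0.0586) and with no filter on dim genes (0.106). The same held with no variance trend (0.0556) and with the replicate number as a block (0.0544).

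Outside the cartilage types, 3 collagens that decorate fibrils were tested. Of these 1 was called lower, Col14a1, and 2 were not called. Col14a1 had signals of 558 and 655.6 in wild type and 350.3 and 371.4 in Sftpc-Nmyc (-0.75 ± 0.14, limma adjusted p = 0.00651), a call lost without wild-type replicate 2 (0.0594). Its second probe set gave -0.50 ± 0.22 and was not called. Col16a1 was at 197.7 and 197.6 against 111.1 and 182.8, with the transgenic replicates far apart (-0.45 ± 0.23, limma adjusted p = 0.174). The value turns on those arrays: it was -0.11 without Sftpc-Nmyc replicate 1 (limma adjusted p = 0.724) and -0.79, and called, without replicate 2 (0.0368). Col12a1 was at 86.9 and 76.9 against 62.4 and 55.6 and did not pass (-0.39 ± 0.22, limma adjusted p = 0.213).

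Collagens of cartilage were at or near background in both groups. Col9a1, a chain of the type IX collagen that coats cartilage fibrils, was the single member tested, at 77.6 and 49.9 in wild type and 64.2 and 69.1 in Sftpc-Nmyc (0.15 ± 0.26, limma adjusted p = 0.7). The groups overlapped, and the value ran from -0.13 without wild-type replicate 2 to 0.43 over left-out arrays. Col2a1, the main fibril chain of cartilage, was at 10.7 and 22.9 against 13.4 and 7.1. Col11a1, the highest of the untested members, was at 41.8 and 34.4 against 29.5 and 26.2. Col11a2 ranged from 10.5 to 51.8 and Col10a1, Col9a2 and Col9a3 stayed at 10 or below on all arrays. Among 12 measured cartilage markers, 11 were under 73.4 on all arrays, and their summed signal was 363.1 to 439 in wild type and 281.4 to 358.8 in Sftpc-Nmyc. The proteoglycan Acan was at 42.4 to 49.1 on the 4 arrays, and 1 of the 4 tested was called, Chad, chondroadherin, which fell by 2.29 ± 0.30 (limma adjusted p = 0.00156). Snorc, a cartilage proteoglycan, was at 36.7 and 35.5 in wild type and 43.7 and 50.2 in Sftpc-Nmyc (0.43 ± 0.28, limma adjusted p = 0.276). Matn3, a cartilage matrix protein named after its values were seen, was too dim to test, at 14 and 19.9 against 43.7 and 47.3.

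The other untested members were Col8a1, Col17a1, Col19a1, Col20a1, Col22a1 and Col26a1, with signals from 3.3 to 40.7. Col17a1, a hemidesmosome collagen of basal epithelium, was at 18.3 and 7.5 in wild type and 3.7 and 8.1 in Sftpc-Nmyc. At these levels a difference was not detectable. The lowest tested collagen was Col5a3.

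At the level of probe sets, 38 of the 58 were tested, of which 25 were lower and 0 higher with limma, Col25a1 (adjusted p = 0.0568) not being among them, against a background of 12.9% lower and 13.5% higher among 14266 probe sets. Of 12 genes with more than 1 tested probe set, 10 had the same call from all of them. Col1a1 and Col14a1 were the exceptions, and in both the estimates had the same sign. Probe sets of 1 gene share the same RNA and are not replicates.

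**Figure D4:**
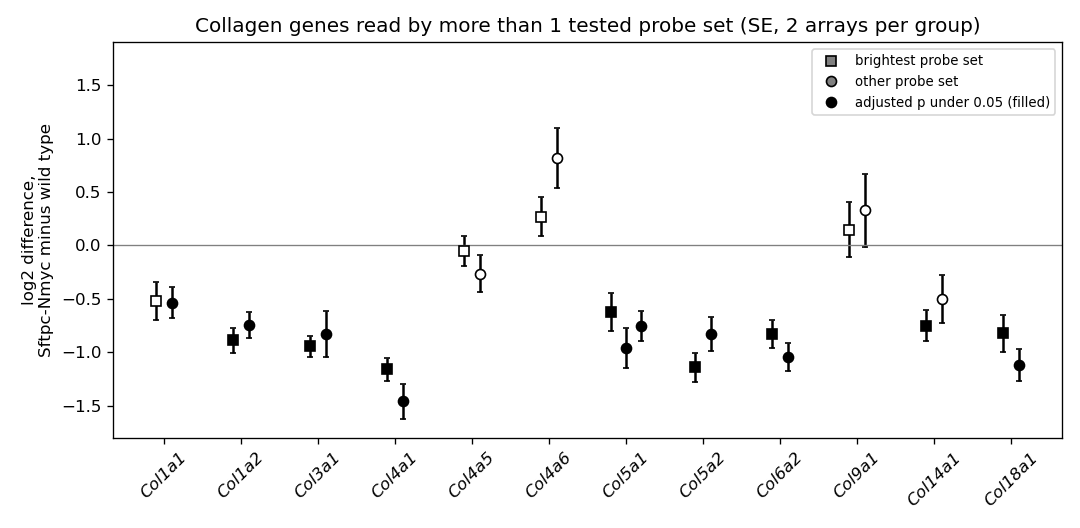
Log2 difference with standard error for collagen genes read by more than 1 tested probe set, squares for the brightest and circles for the others, filled where the adjusted p over probe sets is under 0.05. The probe sets of each gene lie on the same side of 0, from -1.46 (Col4a1) to 0.82 (Col4a6).

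Of 15 tested genes that fold and modify procollagen, 6 were lower and 1 higher, with a median of -0.36. Over all genes tested, 15.7% were lower and 14.7% higher, with a median of -0.02. P4ha1, a catalytic subunit of prolyl 4-hydroxylase, fell by 0.88 ± 0.17 (limma adjusted p = 0.00738), and Ppib, the isomerase cyclophilin B, fell by 0.55 ± 0.10 (limma adjusted p = 0.00547). Colgalt1, which adds galactose to hydroxylysine, rose from 319.3 and 402.9 to 597.4 and 549.4 (0.66 ± 0.16, limma adjusted p = 0.0158). Serpinh1, the collagen chaperone HSP47, named after its values were seen, overlapped between groups at 2404 and 1723 against 1424 and 1882 (-0.36 ± 0.20). P4hb, protein disulfide isomerase, also named after its values were seen, was at 2476 and 2193 against 2514 and 2235 (-0.07 ± 0.11).

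Genes that act after secretion were counted in lists of their own, beside a background of 15.7% lower and 14.7% higher over all genes tested. All 3 tested genes of procollagen cleavage were lower, with Bmp1, the C-propeptide protease, at -0.78 ± 0.18 and its enhancer Pcolce at -0.63 ± 0.16. Of 5 crosslinking genes 3 were lower. Lox, lysyl oxidase, was at 2616 and 2057 in wild type and 1008 and 1121 in Sftpc-Nmyc (-1.18 ± 0.15, limma adjusted p = 0.00142), and Tgm2, tissue transglutaminase, fell by 1.13 ± 0.13. Of 12 fibril-associated genes 8 were lower, with Postn, periostin, at -1.94 ± 0.15, Sparc at -0.85 ± 0.09 and Bgn, biglycan, at -0.81 ± 0.11. Fmod, fibromodulin, named after its values were seen, was at 0.04 ± 0.22.

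Collagen receptors and the enzymes of collagen breakdown followed the same direction. The background over all genes tested was 15.7% lower and 14.7% higher. Of 6 receptor genes 4 were lower, among them Itgb1, the common beta subunit of collagen-binding integrins, at -0.62 ± 0.12, and Ddr1, a collagen-binding kinase, at -0.73 ± 0.17. Of 8 genes of breakdown and its inhibitors, 4 were lower and none higher. The gelatinase Mmp2 was at -1.11 ± 0.19 and its activator Mmp14 at -0.84 ± 0.14, and the inhibitors Timp3 at -1.97 ± 0.32 and Timp2 at -0.78 ± 0.18. Of 12 laminins and other partners of type IV collagen, 6 were lower, with a median of -0.55. Lama4, the laminin chain of vessels, was at -1.50 ± 0.18, Lama3, an epithelial chain, at -1.14 ± 0.14, and Nid1, which bridges laminin to type IV collagen, at -0.78 ± 0.13. Agrn, a proteoglycan of basement membranes named after its values were seen, was at 0.01 ± 0.16.

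**Figure D5:**
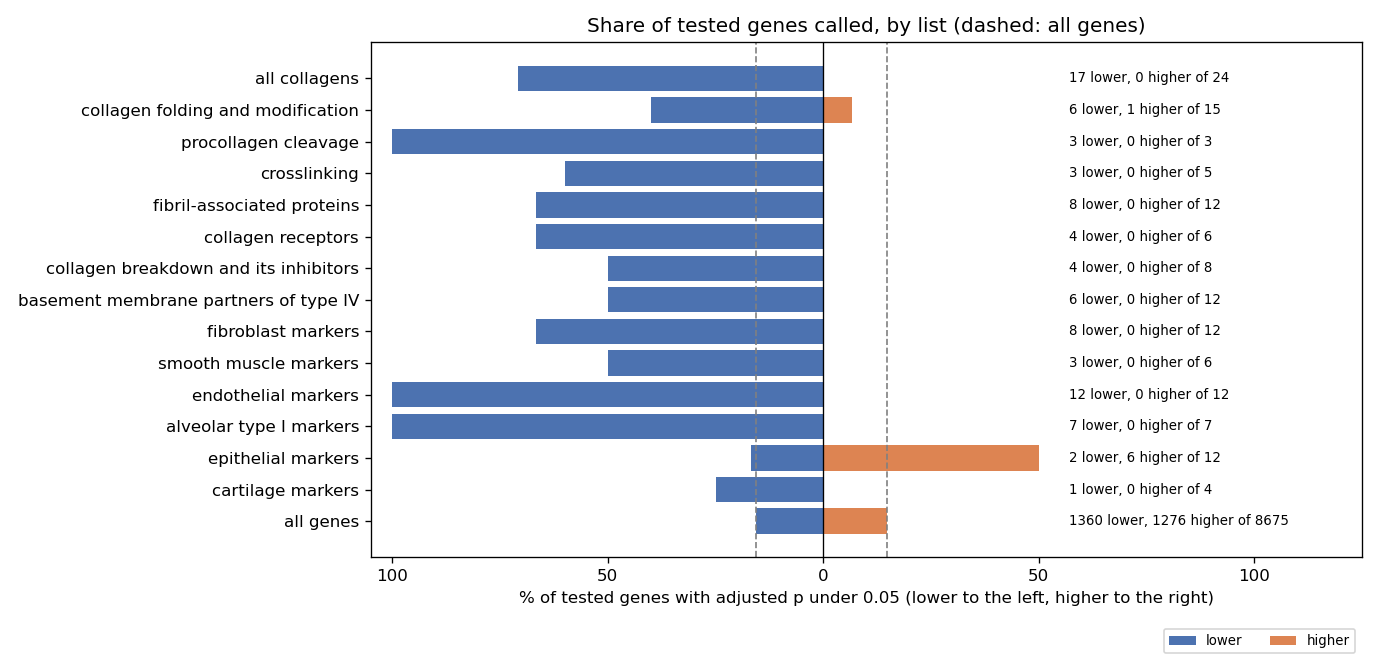
Percentage of tested genes called lower (left) or higher (right) in Sftpc-Nmyc for the collagens, their partner lists and marker lists, with counts at the right and dashed lines at 15.7% and 14.7%, the shares over all genes. The collagens stand at 70.8% lower, and the epithelial markers alone among the lists shown have more genes higher than lower.

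Markers of fibroblasts, endothelium and smooth muscle were counted beside the collagens, where 15.7% of all genes tested were lower and 14.7% higher. Fibroblast markers were lower in 8 of 12 tested genes (median -0.87), with a summed signal of 7081 to 7879 in wild type and 4056 to 4284 in Sftpc-Nmyc over 13 genes. Pdgfra, the receptor that marks lung mesenchyme, fell by 1.30 ± 0.20 and Tbx4, a transcription factor of lung mesenchyme, fell by 1.25 ± 0.17, while Gli1, named after its values were seen, was at 0.22 ± 0.33. All 12 endothelial markers were lower (median -1.24), with a summed signal of 10074 to 10897 against 4115 to 4147, and Cdh5 fell by 1.59 ± 0.13. Smooth muscle markers were lower in 3 of 6 (median -0.74), with sums of 3471 to 3701 against 1807 to 2378.

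Alveolar type I cells form the thin gas-exchange epithelium whose basement membrane fuses with that of capillaries. A list of markers of these cells was added after values were seen. Over all genes tested, 15.7% were lower and 14.7% higher. All 7 tested alveolar type I markers were lower. Their median was -1.59 and their summed signal 15115 to 15150 in wild type and 6269 to 8915 in Sftpc-Nmyc. Aqp5, a water channel, was at 535.7 and 564.6 against 20.7 and 22.5 (-4.35 ± 0.17), and Emp2, a membrane protein, fell by 1.55 ± 0.14. General epithelial markers went the other way in 6 of 12, with 2 lower (median 0.58, summed signal 18082 to 18763 against 12895 to 13965), the sum being dominated by Sftpc and Sftpb. Epcam rose by 1.48 ± 0.12 and Cldn6 by 2.78 ± 0.17. The 2 called lower were Sftpb, at -2.85 ± 0.17 (limma adjusted p = 0.000105), and Sftpc, at -0.997 ± 0.097 (limma adjusted p = 0.000567). The part that any of these cells play in the collagen values was not tested.

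Markers of cardiac muscle, mesothelium and bone were counted too, beside a background of 15.7% lower and 14.7% higher over all genes tested. Cardiac muscle markers were lower in 7 of 7 (median -2.32), with sums of 1837 to 2974 in wild type and 332.9 to 578.7 in Sftpc-Nmyc over 8 genes. Mesothelial markers were lower in 3 of 4 (median -1.58), with sums of 2363 to 2945 against 1385 to 1621. Of bone markers, 0 of 2 tested were called, with sums of 166 to 186.5 against 110.9 to 131.5. The part of these tissues in the collagen values was not tested.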

How the data were processed

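Total RNA of 2 wild-type and 2 Sftpc-Nmyc whole-lung samples was hybridised to Affymetrix arrays. The authors deposited a linear intensity for each probe set. How they made it (software, background, scaling) is not given in the sources used here, but all arrays share a mean of 150.05 once 2% is trimmed at each end. Detection calls were not used here. Scanner files were not analysed here.

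Genes were named from the platform annotation (20380 probe sets with 1 symbol, 691 with several, 1555 with none, 64 controls), with symbols checked by identifier against RefSeq GRCm38.p6 (20351 matched, 0 updated). Probe positions were not used. Values under 1 were set to 1, 5 was added, log2 taken and the arrays quantile normalized without controls. Limma 3.58.1 in R 4.3.3 (lmFit, eBayes with trend) was fitted with group as the only term, and the code was tested on simulated data. Genes were filtered at the 30th percentile of mean level, which for a single gene corresponds to a signal near 37.2. Probe sets were fitted the same way. Named genes are all collagens and, per list, some of the 4 genes that had the highest absolute moderated t, with exceptions marked. Not all 4 of each list are named, and the list gene with the highest value is not always among them. The collagens, lists and tests were chosen with earlier results of these data known, and the alveolar type I list was added after values were seen. Alternatives covered the offset, normalization, probe set choice, filter, variance trend, replicate block and leaving out each array.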

Additional observations from a re-analysis of the deposited data

How the results depend on the processing

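With offsets of 1 or 32, or only the deposited scaling, the same 17 collagens were called lower. Over the other alternatives the count was 12 to 18, and 0 were higher in any. The median over tested collagens went from -0.83 to -0.67 with median centring, which moved the median of all genes from -0.02 to 0.03, and to -0.59 with no filter on dim genes, and ranged from -0.94 to -0.73 when an array was left out. The basement membrane median of -1.05 became -0.85 with an offset of 32, -0.98 with only the deposited scaling, -0.91 with median centring and -0.94 with the 50th percentile filter, which drops Col4a3, Col4a4 and Col7a1, and ranged from -1.11 to -0.99 over left-out arrays. The fibrillar median of -0.76 became -0.58 with median centring and ranged from -0.90 to -0.58 over left-out arrays. That of the other types, -0.79, became -0.63 with median centring and -0.60 with no filter. The cartilage value rests on Col9a1, and changed sign to -0.11 with no filter, when all 7 genes enter, and to -0.13 without wild-type replicate 2 (range -0.13 to 0.43 over left-out arrays). Among genes never called, Col4a5 changed sign to 0.019 with median centring, Col5a3 to 0.21 without wild-type replicate 2 and 0.046 without Sftpc-Nmyc replicate 2 (range -0.28 to 0.21), and Col9a1 to -0.13 without wild-type replicate 2. Collagen probe sets called higher went from 0 to 1 with no filter (a dim Col9a3 probe set, 1.17) and to 1 with no variance trend (a Col4a6 probe set, 0.82). The 1360 genes called lower among all tested fell to between 669 and 1037 when an array was left out. Apart from which genes or arrays entered, the cause of these changes was not tested.

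Replicate numbers are shared between groups, but nothing in the labels pairs the lungs, and same-numbered deviations correlated at r = -0.04 over all genes tested. With the replicate number as a block, 16 collagens were lower: Col1a1 was gained (limma adjusted p = 0.0235), and Col7a1 (0.062) and Col25a1 (0.0544) were lost. The collagen median under the block was -0.83. Signals under about 73.4, the highest Bacillus control, limit what can be said of 13 of the 36 collagens, which lay below it on all arrays. Both Sftpc-Nmyc signals also lay below it for Col4a3, Col4a4, Col7a1, Col9a1 and Col12a1. That of Sftpc-Nmyc replicate 2 did so for Col15a1 (71.4) and Col25a1 (73.2).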
